A study of Mus musculus with 5 samples.

Results

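Among immune cells sorted from the atherosclerotic mouse aortic arch, 85 cells high in Lyz2 were set apart by 4 genes of the lipid-laden macrophage state, Trem2, Gpnmb, Spp1 and Fabp5. A cell was taken when mitochondrial transcripts made up at most 25% of its molecules, Lyz2 reached at least 30 per 10000 molecules, and the 4 genes together reached at least 10 per 10000 molecules, at any level of complement C1q. These 85 cells were 85 of 1743 deposited cells, of 1656 cells kept after the mitochondrial limit and of 472 cells high in Lyz2, the gene of the myeloid lysozyme. The other 387 Lyz2-high cells, 296 of them high in C1q and 91 low, served as the comparison. Lyz2 and the 4 genes chose the cells, so their levels, and every difference between the chosen and the remaining Lyz2-high cells, are descriptions without a test. The name lipid-laden refers to these transcripts, since no lipid was stained or weighed. It also covers a cell labelled wild-type that entered mainly on Spp1 and held bone and cartilage matrix genes, described below. With the Saa3-/- label it further covers cells in which Trem2 was the largest of the 4 genes. Their median Lgals3 lay below that of the other Lyz2-high cells.

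Macrophages of the plaque take up modified lipoproteins, break down their cholesteryl esters in lysosomes, and either store the sterol in droplets or hand it to carriers outside the cell. Trem2 is a surface receptor for lipids and lipoproteins that signals through the adaptor Tyrobp, and it is a known marker of foamy macrophages in the aorta and of related cells in adipose tissue and brain. Gpnmb is a glycoprotein of lysosomes and the cell surface, Spp1 encodes the secreted matrix protein osteopontin, Fabp5 a cytosolic fatty acid carrier and Lgals3 the lectin galectin-3.

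The arch cells came from female mice that were 12 weeks old when the model was started, either C57BL/6J wild-type or littermates with both copies of Saa3, the gene of the acute-phase protein serum amyloid A3, deleted. The labels name the Saa3 allele as C57BL/6N-Saa3tm1.1(KOMP)Vlcg/MbpMmucd. Both genotypes carried the same atherosclerosis model, a single injection of an AAV8 vector followed by 18 weeks of Western diet. Live CD45+ cells were tagged by genotype, pooled and captured together, so that there was 1 pool of cells per genotype and the number of animals behind each pool is not given in the sources used here. Differences between the pools therefore carry no test, and their intervals cover counting error only. The 4 cultured macrophage samples of the series were not analysed here.

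The pools labelled wild-type and Saa3-/- held 833 and 823 kept cells, with medians of 6415 and 4698 molecules per cell. Saa3 itself, the check of the labels, was near the floor in the lipid-laden cells of both pools. It gave 15 molecules in the 38 cells labelled wild-type, 8 of them in 1 cell, or 32.5 CPM (molecules of the gene scaled to the total of its cell group; 95% Poisson interval 18.2 to 53.6). It gave 7 molecules in the 47 cells labelled Saa3-/-, 1 in each of 7 cells, or 13.4 CPM (5.37 to 27.5). Lymphoid cells, which should lack the gene, stood at 30.0 and 25.9 CPM at medians of 4480 and 3911 molecules per cell, so the counts did not separate the lipid-laden cells from that background. In the other Lyz2-high cells Saa3 was at 325 CPM in the pool labelled wild-type and 31.4 CPM in the pool labelled Saa3-/-. Over all kept cells it went against the labels, at 148 and 242 CPM, since the Lyz2-low cells stood at 28.7 and 333 CPM. One cell labelled Saa3-/- held 799 of that pool's 1268 molecules, and without the highest cell of each pool, an alternative chosen after the data were seen, the order turned, to 115 and 90.1 CPM. The pools are therefore called by their labels throughout, and each direction between them rests on those labels.

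The promoters of 6 genes described below are printed here because they carry the short motifs that were counted over the promoters of the genes higher in the lipid-laden cells and of the lysosome list. CACGTG is the core of the E-box motif known from lysosomal genes. TGANTCA is a broad form of the AP-1 motif, which has C or G where N allows any base. Each line runs 5′ to 3′ on the gene's strand and ends at the base before the annotated start (RefSeq, GRCm38.p6), with the motif in capitals.
Ctsd, chr7:142387828-142388077, minus strand: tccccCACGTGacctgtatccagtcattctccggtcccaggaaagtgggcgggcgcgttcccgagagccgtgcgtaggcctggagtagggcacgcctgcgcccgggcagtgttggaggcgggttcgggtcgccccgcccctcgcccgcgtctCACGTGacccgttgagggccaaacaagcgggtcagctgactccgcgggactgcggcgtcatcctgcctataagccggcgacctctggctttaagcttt
Lamp1, chr8:13159061-13159160, plus strand: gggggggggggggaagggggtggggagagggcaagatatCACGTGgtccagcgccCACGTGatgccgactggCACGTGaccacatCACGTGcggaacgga
Nceh1, chr3:27182904-27183003, plus strand: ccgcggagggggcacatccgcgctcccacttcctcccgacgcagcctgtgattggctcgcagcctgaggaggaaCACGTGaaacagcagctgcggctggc
Igf2r, chr17:12769707-12769806, minus strand: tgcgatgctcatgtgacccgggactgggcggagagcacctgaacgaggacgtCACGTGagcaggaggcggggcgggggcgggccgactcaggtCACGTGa
Trem2, chr17:48346301-48346400, plus strand: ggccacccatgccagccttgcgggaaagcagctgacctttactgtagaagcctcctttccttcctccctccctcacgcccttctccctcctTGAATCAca
Mmp12, chr9:7347274-7347373, plus strand: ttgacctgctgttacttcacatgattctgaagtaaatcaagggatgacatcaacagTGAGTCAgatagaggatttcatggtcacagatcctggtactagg
The Ctsd promoter held 2 copies of CACGTG, at -245 and -98 from the start, and the Lamp1 promoter held 4 between -61 and -15. Igf2r held 2, at -48 and -7, and Nceh1 1, at -26. TGANTCA began 9 bases before the start of Trem2 and 44 bases before that of Mmp12. The Trem2 match has A at the N, outside the stricter AP-1 form, and the Mmp12 match has G.

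The 4 genes of the rule did not contribute evenly to the choice. Their summed level ran from 10.1 through a median of 24.5 to 435 per 10000 molecules in the 38 cells labelled wild-type. In the 47 cells labelled Saa3-/- it ran from 10.05 through 57.4 to 708. In the pool labelled wild-type, 16 cells lay between 10 and 20, 15 between 20 and 50 and 7 at 50 or more, and in the pool labelled Saa3-/- these counts were 15, 7 and 25. Cells at 50 or more were thus 18.4% (exact binomial 95% interval 7.74 to 34.3) and 53.2% (38.1 to 67.9) of the lipid-laden cells, and the pool labelled Saa3-/- held a larger share of strongly marked cells. The 3 cells just inside the limit stood at 10.1, 10.5 and 10.8 and the 3 just outside at 9.37, 8.38 and 8.22 in the pool labelled wild-type. In the pool labelled Saa3-/- these values were 10.05, 10.2 and 10.4 against 9.89, 9.55 and 9.18, with no gap at the limit in either pool.

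All 4 genes were present in 15 of the 38 cells and 25 of the 47 cells, and Trem2 occurred together with Gpnmb in 21 and 36. A single gene carried 4 and 3 cells, and 1 cell of each pool passed with fewer than 3 molecules of the 4 genes. Trem2 led the sum in 11 cells labelled wild-type, with a median sum of 12.8, and in 14 labelled Saa3-/-, with 12.3. Gpnmb led in 10 and 18 cells with median sums of 31.5 and 135, Spp1 in 10 and 11 cells with 44.6 and 81.0, and Fabp5 in 7 and 4 cells with 27.5 and 79.1. Of the cells led by Trem2, 9 of 11 and 12 of 14 had a sum between 10 and 20 and none reached 50. Lgals3, which was no part of the rule, had its lowest median in the cells led by Trem2 and its highest in the few led by Fabp5. With the Saa3-/- label its medians per 10000 molecules were 6.98 in cells led by Trem2, 59.5 by Spp1, 80.4 by Gpnmb and 92.6 by Fabp5. With the wild-type label they were 20.4, 39.2, 37.8 and 45.8. The other Lyz2-high cells had Lgals3 medians of 8.79 with the Saa3-/- label and 9.48 with the wild-type label. The 14 cells led by Trem2 with the Saa3-/- label thus had a median Lgals3 below that of the comparison cells.

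**Figure D1:**
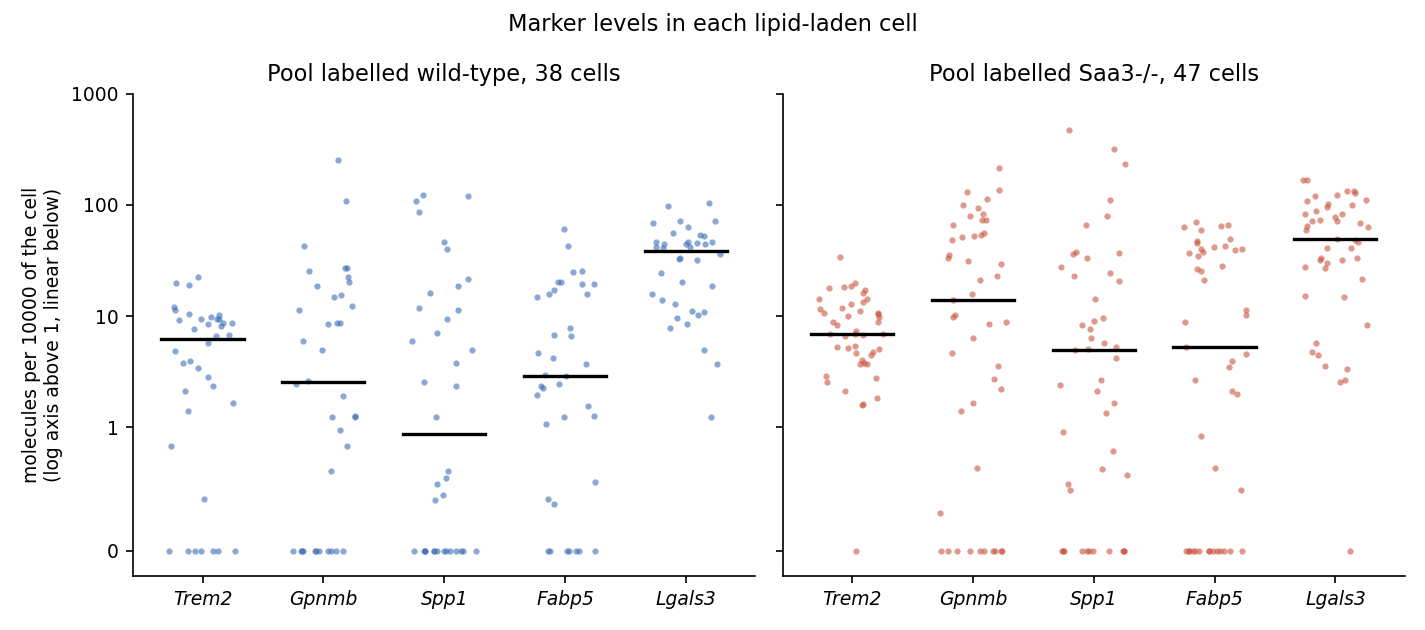
Molecules per 10000 of each lipid-laden cell (vertical axis, logarithmic above 1 and linear below) for the 4 genes of the rule and Lgals3, with 1 point per cell and the median as a bar. Left, 38 cells of the pool labelled wild-type; right, 47 cells of the pool labelled Saa3-/-. Trem2 spans the narrowest range, Spp1 and Gpnmb reach 467 and 254 in their highest cells, and Lgals3 is at 0 in 1 cell.

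Trem2 (chr17:48346401-48354147) summed to 559 CPM in the lipid-laden cells labelled wild-type and 705 CPM in those labelled Saa3-/-. In the other Lyz2-high cells it was at 98.8 and 157 CPM, above the lymphoid background of 12.8 and 10.3 CPM. Gpnmb (chr6:49036546-49070929) was at 1498 and 3649 CPM against 36.2 and 31.4 CPM, Spp1 (chr5:104435118-104441050) at 2291 and 2769 CPM against 54.7 and 45.2 CPM, and Fabp5 (chr3:10012548-10016607) at 924 and 2450 CPM against 52.6 and 65.8 CPM. These 3 levels in the other Lyz2-high cells were close to those of lymphoid cells, where Gpnmb stood at 42.8 and 36.8, Spp1 at 44.2 and 62.1 and Fabp5 at 67.1 and 62.7 CPM. The rule caps the 4 genes in these cells, and within that cap Trem2 alone stood above the 95% counting interval of the lymphoid level in both pools. Single cells weighed heavily on the sums, since 1 cell held 43.5% of the Spp1 molecules in the pool labelled wild-type and 25.6% in the pool labelled Saa3-/-. For Gpnmb these shares were 32.4% and 18.9%, and for Trem2 6.98% and 5.96%.

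Lipid-laden cells made up 13.5% (38 of 282; exact binomial 95% interval 9.72 to 18.0) of the Lyz2-high cells in the pool labelled wild-type and 24.7% (47 of 190; 18.8 to 31.5) in the pool labelled Saa3-/-, a difference of 11.3 percentage points. Against all kept cells the shares were 4.56% (3.25 to 6.21) and 5.71% (4.23 to 7.52), 1.15 points apart with overlapping counting intervals. The other Lyz2-high cells were 29.3% and 17.4% of kept cells, a gap of -11.9 points, so the denominator differed more between the pools than the lipid-laden cells did. Sorting and capture can set either share, and their part was not tested. With every cell thinned to 2000 molecules the shares were 15.4% of 272 and 30.8% of 185 Lyz2-high cells. The thinning left out 5 and 3 shallower Lyz2-high cells, 2 and 1 of them lipid-laden. The order of the pools turned when cells with at least 10 per 10000 molecules of T cell, B cell, plasma cell, smooth muscle or fibroblast markers were left out, to 25.8% (8 of 31) against 18.2% (6 of 33), a filter that removed most Lyz2-high cells of both pools. A limit of 50 per 10000 on the same markers, chosen after the data were seen, gave 13.6% and 25.7%.

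The lipid-laden cells carried general genes of macrophages. Cd68, a membrane protein of macrophage endosomes, was found in all 38 and all 47 cells, and Csf1r, the receptor for macrophage colony-stimulating factor, in 36 and 44. The 13 genes of the pan-macrophage list summed to between 34.6 and 313 per 10000 molecules in the lipid-laden cells labelled wild-type and between 79.4 and 327 in those labelled Saa3-/-. By the log2 ratios over other Lyz2-high cells described in the next paragraph, 6 of the 13 were above 0 in both pools and 4 below 0 in both. Their medians were 0.18 and 0.12, and 2 were called higher and none lower. C1q was high, at 10 or more per 10000 for C1qa, C1qb and C1qc together, in 31 of 38 cells (81.6%; 65.7 to 92.3) and 40 of 47 (85.1%; 71.7 to 93.8). Most lipid-laden cells were thus C1q-high, as were 78.7% and 72.7% of the other Lyz2-high cells.

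Genes other than those of the rule were compared by the log2 ratio of CPM between lipid-laden and other Lyz2-high cells of the same pool, with 0.5 molecule added to each sum, over 6586 genes with at least 30 molecules in both pools. A gene was called when its ratio was at least 1 in size, that is 2-fold, with the same sign in both pools. By this rule 82 genes were higher (1.25% of those compared) and 126 lower (1.91%), the 4 genes of the rule being among the higher. The same cells gave the choice and the ratio, so these percentages say nothing about the strength of the state. In each pool by itself 196 (2.98%) and 376 (5.71%) genes were past the limit upward, and the 82 shared ones were 41.8% and 21.8% of these. Downward they were 294 (4.46%) and 648 (9.84%). Across the 6581 genes other than those of the rule the ratios of the pools had a Pearson correlation of 0.41, which describes genes and not replicates.

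Lgals3 (chr14:47367751-47386160) was found in every lipid-laden cell labelled wild-type, from 1.25 through a median of 38.7 to 105 per 10000 molecules. In those labelled Saa3-/- it ran from 0 through 49.1 to 168, and it was found in 46 of 47 cells. The other Lyz2-high cells had medians of 9.48 and 8.79, and their ranges overlapped those of the lipid-laden cells, reaching 89.4 and 107. In sums, Lgals3 was at 3464 against 1309 CPM in the pool labelled wild-type, a log2 ratio of 1.40, and at 6672 against 1329 CPM in the pool labelled Saa3-/-, a log2 ratio of 2.33.

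Among the genes open to naming, the one furthest above the other Lyz2-high cells was Syngr1, which encodes the vesicle membrane protein synaptogyrin 1. It gave 38 molecules in 13 lipid-laden cells labelled wild-type against 14 molecules in 244 other cells, a log2 ratio of 4.07. In the pool labelled Saa3-/- it gave 82 molecules in 26 of 47 lipid-laden cells and none in 143 others, which against a floor of 3 molecules was at least 53.1-fold higher. Syngr1 overlaps Rpl3 on the opposite strand, and reads of the 2 genes cannot be told apart where strand was not used. Atp6v0d2, a subunit of the proton pump that acidifies lysosomes and the osteoclast's resorption space, was at 93.1 against 10.6 CPM (log2 ratio 3.13) and at 313 against 7.86 CPM (5.23). Mmp12, the macrophage elastase, was at 281 against 44.1 CPM (2.67) and at 707 against 93.3 CPM (2.91). Atp6v0d2 was found in 10 of 38 and 18 of 47 lipid-laden cells, and Mmp12 in 15 of 38 and 25 of 47.

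The other genes named by the rule for the largest ratios had log2 ratios close to 2 or above in both pools. They were Rnf128, a ubiquitin ligase (2.33 in the pool labelled wild-type and 3.64 in the pool labelled Saa3-/-), Gdf3, a ligand of the TGF-beta family (2.30 and 2.34), Il7r, the interleukin-7 receptor chain (2.16 and 2.75), and Itga6, integrin alpha 6 (2.16 and 2.15). The same direction held for Lhfpl2 (2.09 and 2.11), Olfml3, a secreted olfactomedin-like protein (2.03 and 2.00; mean 0.97 and no longer called with the rule without Trem2), Galns, a lysosomal sulfatase (1.91 and 2.20), and Fbxo32, a ubiquitin ligase component (2.04 and 1.89). Ctsd, the lysosomal protease cathepsin D, was the most abundant of the 12, at 1249 against 359 CPM (log2 ratio 1.80) and 1894 against 270 CPM (2.81), and was present in 35 of 38 and 46 of 47 lipid-laden cells. Of its 50-base words, 32.4% also occur in the readthrough transcript Gm49369, so part of its reads could have been assigned differently.

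**Figure D2:**
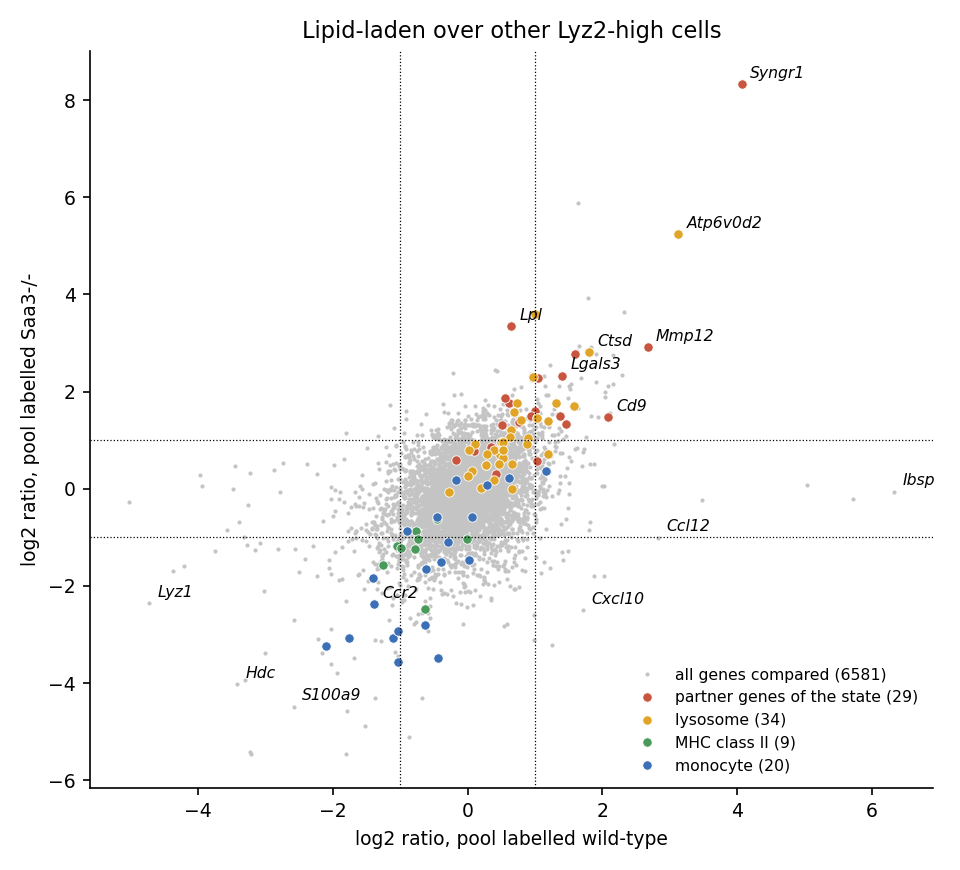
Log2 ratio of lipid-laden over other Lyz2-high cells in the pool labelled wild-type (horizontal) and the pool labelled Saa3-/- (vertical) for 6581 compared genes outside the rule, with 4 gene lists in colour and dotted lines at 1 and -1. Partner genes and lysosome genes lie mostly above 0 in both pools, monocyte and MHC class II genes mostly below; the height of Syngr1 depends on the added 0.5 molecule, since its count in the other cells labelled Saa3-/- was 0.

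Genes known to accompany Trem2 and Gpnmb in lipid-laden macrophages, a list of 29 compared genes, were higher in 14 cases and lower in none, with median log2 ratios of 1.00 and 1.58 beside 0.00 and -0.06 over all genes. Of the 29, 28 had a ratio above 0 in both pools. Cd9, a membrane tetraspanin, was at 582 against 138 CPM (log2 ratio 2.08) in the pool labelled wild-type and at 533 against 192 CPM (1.47) in the pool labelled Saa3-/-. Itgax, which encodes the integrin CD11c, had log2 ratios of 1.37 and 1.49, and Pld3, a lysosomal nuclease, 1.05 and 2.28. Igf2r, the receptor that carries enzymes to lysosomes, gave 33 and 26 molecules in the lipid-laden cells, with log2 ratios of 1.53 and 2.16, and it overlaps Airn on the opposite strand. Genes of Trem2 signalling were not among the called ones. None of 12 genes of that list was called, Tyrobp had log2 ratios of 0.20 and 0.52, and the kinase gene Syk had log2 ratios of -0.37 and -0.92.

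The lysosome list gave 7 higher genes of 34 and none lower, with medians of 0.64 and 0.92 and 32 genes above 0 in both pools. It shares members such as Ctsd and Atp6v0d2 with the partner list. The 7 were Ctsd, Atp6v0d2, Ctsk, described with the osteoclast genes, and 4 more: Ctsb, cathepsin B, at 10418 against 4173 CPM (log2 ratio 1.32) and 13302 against 3905 CPM (1.77), Ctss, cathepsin S, with 1.20 and 1.40, and Psap, the precursor of the saposins that help lipid-degrading enzymes, with 1.04 and 1.45. Cd63, a tetraspanin of late endosomes, was at 907 against 304 CPM (1.58) and 1117 against 343 CPM (1.70). The lysosomal membrane protein gene Lamp1 was at 1321 against 1078 CPM and 1606 against 975 CPM, log2 ratios of 0.29 and 0.72 that miss the limit. The calcium channel gene Mcoln1, with ratios of 0.65 and -0.01, and Lamp2, with 0.01 and 0.26, were also not called.

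CACGTG occurred in 10 of 71 promoter windows (14.1%) of the higher genes outside the rule, 56 of 78 genes being found in the promoter table, and in 7.15% of all 32851 windows of 300 bases. In the lysosome list it occurred in 11 of 32 windows (34.4%; 27 of 36 genes found). Its longer form TCACGTG, which lies within the same matches, occurred in 11.3% and 31.2% of these windows and in 3.77% of all. TGANTCA occurred in 6 of the 71 windows (8.45%), in 2 of the 32 (6.25%) and in 7.81% of all. The Trem2 and Gpnmb windows each held a TGANTCA, and the 5 windows of the marker genes held no CACGTG. Of the 7 lysosome genes called higher, Ctsd alone had a window with CACGTG, though not every gene of the list was found. The other lysosome windows with CACGTG belonged to genes not called, such as Lamp1 and Mcoln1. The nuclear receptor motifs DR1 and DR4 had no match in either gene set, against 0.0396% and 0.0152% of all windows. All motifs were read on both strands, and a match is a description of the sequence, not of binding.

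Lipid handling gave a mixed picture. Of 24 genes for uptake, storage and efflux, 3 were higher, with medians of 0.55 and 0.67. Fabp4, a fatty acid carrier, had log2 ratios of 1.59 and 2.78 on 14 and 79 molecules in the lipid-laden cells. Nceh1, a hydrolase of cholesteryl ester whose promoter is printed above, was at 193 against 83.4 CPM (1.21) and 271 against 113 CPM (1.26). Abcg1, which exports cholesterol to lipoproteins, was at 498 against 181 CPM (1.47) and 607 against 241 CPM (1.33). Insig1, a sterol-regulated inhibitor of cholesterol synthesis, was lower, at 32.5 against 84.1 CPM (-1.33) and 40.1 against 92.3 CPM (-1.18).

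Several well-known genes of lipid handling differed between the pools in how far they stood out. Lpl, the secreted lipoprotein lipase, was at 777 against 496 CPM (log2 ratio 0.65) in the pool labelled wild-type and at 2650 against 261 CPM (3.34) in the pool labelled Saa3-/-. Plin2, the coat protein of lipid droplets, gave 0.55 and 1.87, and Lipa, the lysosomal acid lipase, 0.69 and 1.58, so that none of these 3 met the limit in both pools. Apoe, the apolipoprotein that carries exported cholesterol, was at 12367 against 6025 CPM (1.04) and at 11022 against 7437 CPM (0.57). The scavenger receptor gene Cd36 was not higher, with -0.17 and 0.59, while Msr1, the class A scavenger receptor, gave 0.84 and 1.20.

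Genes of a list drawn up for osteoclasts, the bone-resorbing relatives of macrophages, were among the higher ones. The list is not specific to osteoclasts, since it also holds Mmp12, the macrophage elastase. Of 11 compared, 5 were higher and 1 lower, with medians of 0.99 and 1.22. Besides Atp6v0d2 and Mmp12 these were Acp5, tartrate-resistant acid phosphatase, at 195 against 84.1 CPM (log2 ratio 1.22) and 311 against 53.0 CPM (2.54), Mmp14, a membrane-bound collagenase, with 1.36 and 2.11, and Ctsk, cathepsin K, with 1.01 and 3.59. Ctsk rested on 13 molecules in 6 cells in the pool labelled wild-type and 77 molecules in 13 cells in the pool labelled Saa3-/-. The lower gene was Mmp9, a gelatinase, with 9 and 1 molecules. Nuclear genes of mitochondrial respiration were not called in any of 22 cases, with medians of 0.12 and 0.59, nor was any of 11 cell cycle genes.

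**Figure D3:**
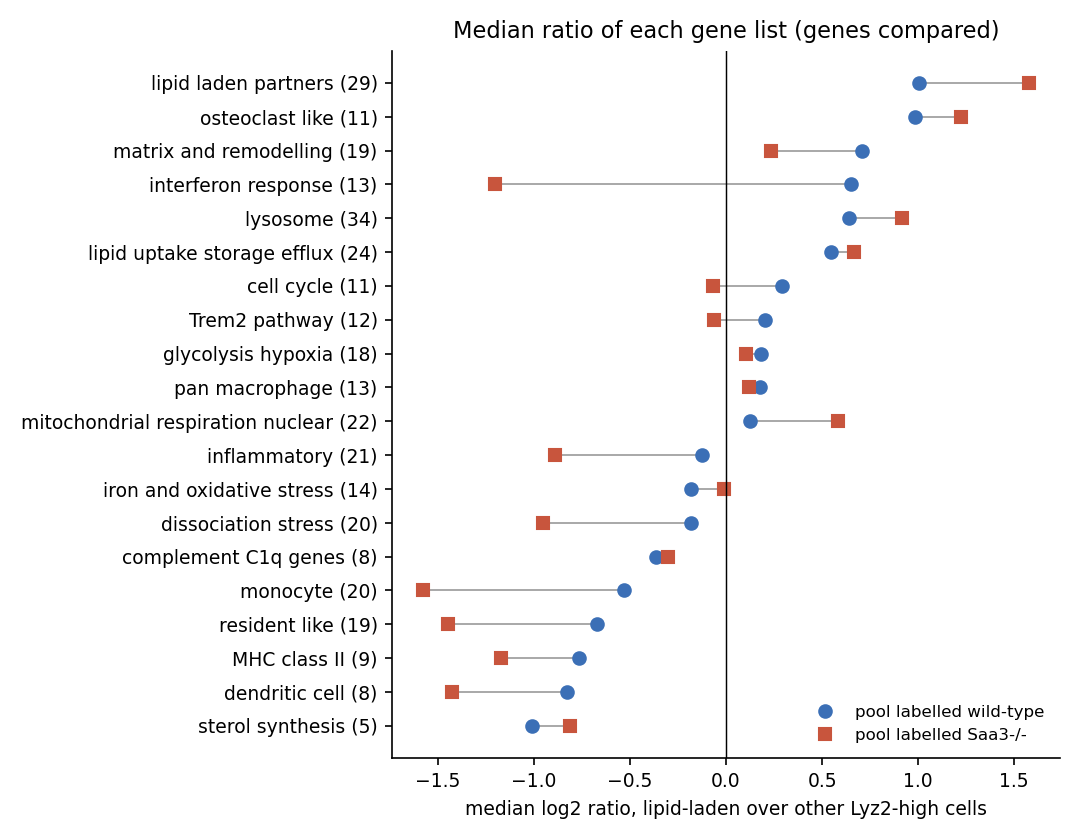
Median log2 ratio of lipid-laden over other Lyz2-high cells for each gene list, with the number of genes compared in brackets, as circles for the pool labelled wild-type and squares for the pool labelled Saa3-/-. The partner list stands at 1.00 and 1.58 and the monocyte list at -0.53 and -1.58; the interferon list lies on opposite sides of 0.

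On the lower side stood genes of monocytes, antigen presentation and resident macrophages. Of 20 monocyte genes 7 were lower and none higher, with medians of -0.53 and -1.58. Ccr2, the chemokine receptor of inflammatory monocytes, was at 162 against 428 CPM (log2 ratio -1.39) in the pool labelled wild-type and at 111 against 578 CPM (-2.37) in the pool labelled Saa3-/-, and it had a molecule in 12 of 38 and 18 of 47 lipid-laden cells against 145 of 244 and 71 of 143 others. Ly6c2, a surface antigen of classical monocytes, gave -1.40 and -1.83. All 9 MHC class II genes compared had ratios below 0 in both pools, and 2 were called. H2-Eb1 was at 2832 against 6743 CPM (-1.25) and 2175 against 6484 CPM (-1.58), H2-Aa at 4332 against 8952 CPM (-1.05) and 3895 against 8773 CPM (-1.17), and the invariant chain gene Cd74 just missed the limit in 1 pool with -0.78 and -1.24.

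Of 19 genes of resident macrophages 3 were lower and none higher, with medians of -0.67 and -1.45. Mrc1, the mannose receptor, was at 427 against 968 CPM (log2 ratio -1.18) and 393 against 1134 CPM (-1.52). Folr2, a folate receptor of vessel-wall macrophages, gave -1.47 and -1.18, but 52.6% of its 50-base words also occur in Gm10602 on the opposite strand. Lyve1, a hyaluronan receptor of perivascular macrophages, differed between the pools, with 0.34 and -2.25. Among 21 inflammatory genes Il1b, interleukin-1 beta, gave -1.26 and -2.14 and Icam1, an adhesion receptor, -1.10 and -1.03, and none was higher. Tnf gave 1.46 in the pool labelled wild-type and -0.62 in the pool labelled Saa3-/-. Of 20 genes of stress during cell dissociation, 2 were lower and none higher, with medians of -0.18 and -0.95.

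Among the genes open to naming, the 12 furthest below the other Lyz2-high cells included several genes of monocytes and granulocytes. Lyz1, the lysozyme of Paneth cells and some myeloid cells, gave 21 molecules in the lipid-laden cells of each pool against 3597 and 212 in the other cells, log2 ratios of -4.72 and -2.35. It shares 16.1% of its 50-base words with Lyz2. S100a9, a calcium-binding protein of neutrophils and monocytes, was at 15.2 against 97.1 CPM (-2.58) and 22.9 against 532 CPM (-4.48). Hdc, histidine decarboxylase, gave 2 molecules in each pool against 169 and 78, log2 ratios of -3.42 (95% counting interval -6.80 to -1.86) and -4.01 (-7.40 to -2.43). The rest rested on small counts in the lipid-laden cells: Klrb1b 1 and 1 molecules, Sirpb1a 2 and 2, Il1rl1 2 and 2, Ccdc88c 2 and 2, Slc2a6 2 and 1, Ifitm6 9 and 6, C6 1 and 4, Jaml 2 and 1 and Clec4b1 8 and 3. With a limit of 5 on the 4 genes, Klrb1b, Il1rl1 and Jaml were no longer called, with means of the ratios of both pools of -0.74, -0.92 and -0.20.

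Granulocyte markers differed alongside these genes. Neutrophil markers reached 50 or more per 10000 molecules in 4 and 6 of the other Lyz2-high cells and in none of the lipid-laden cells, and mast cell markers did so in 3 other cells labelled wild-type and no lipid-laden cell. One cell held 43.2% and 32.1% of the Hdc molecules of the other cells, and 31.7% and 31.5% of those of S100a9. The neutrophil list summed to 126 against 335 CPM and to 124 against 1383 CPM. Its gene Ly6g was at 0 in the lipid-laden cells of both pools and gave 3 and 2 molecules among the other cells, while Camp was at 0 in both cell groups. The part of these cells in the ratios was not tested.

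What the lipid-laden cells differed by depended on the kind of Lyz2-high cell set beside them. Against the 296 other C1q-high cells, 84 genes were higher (1.39% of 6064) and 96 lower (1.58%). Against the 91 C1q-low cells, 158 were higher (3.88% of 4076) and 159 lower (3.9%). Partner and lysosome genes were called higher against both, though most missed the limit, except for partner genes against C1q-high cells. The partner list gave 15 higher of 29 against C1q-high and 11 of 28 against C1q-low cells, and the lysosome list 7 of 33 and 12 of 32, with none lower in any of the 4 comparisons. Ctsd had log2 ratios of 1.80 and 2.68 against C1q-high cells and 1.78 and 3.43 against C1q-low cells. Lgals3 was called against C1q-high cells only, with 1.61 and 2.53 against 0.70 and 1.75.

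Resident and monocyte genes stood on different sides of the 2 comparisons. Resident genes were lower against C1q-high cells, 5 of 19 called and none higher, and higher against C1q-low cells, 10 of 14 called and none lower, with medians of -0.83 and -1.77 against 2.44 and 2.73. Mrc1 gave -1.34 and -1.83 against C1q-high cells, and Cd163, a haptoglobin-haemoglobin receptor, 4.41 and 3.81 against C1q-low cells. Of the monocyte genes, 12 of 19 were lower against C1q-low cells, among them Ly6c2 with -3.50 and -3.95 and Plac8 with -2.55 and -4.85. Against C1q-high cells 1 of 16 was lower and 2 were higher. S100a9, which was lower against all other Lyz2-high cells, gave 0.68 and -2.16 against C1q-high cells. By these medians the resident genes of the lipid-laden cells lay between the C1q-high and C1q-low groups. The lipid-laden cells were themselves a mix, 81.6% and 85.1% of them C1q-high, and the part of this mix was not tested. The partner list had medians of 1.00 and 1.61 against C1q-high cells and 0.82 and 1.86 against C1q-low cells. For the lysosome list these were 0.60 and 0.88, and 0.79 and 1.38.

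The levels of several genes outside the rule were higher at higher sums of the 4 genes across all Lyz2-high cells. From a sum of 0 to 50 or more, Ctsd was at 294, 342, 529, 855, 1352 and 1670 CPM in the pool labelled wild-type, in steps of 0, above 0 to 5, 5 to 10, 10 to 20, 20 to 50 and 50 or more per 10000. In the pool labelled Saa3-/- it was at 230, 257, 338, 987, 1089 and 2359 CPM. Genes differed in where the steps lay. Ctsb was at 4200, 4089 and 4641 CPM below the limit of 10 and at 8538 CPM in the first step above it in the pool labelled wild-type, and at 2889, 4141 and 4090 against 7831 CPM in the pool labelled Saa3-/-. Cd63 had no such step at the limit and was at 222, 294, 444, 637, 822 and 1403 CPM and at 120, 346, 516, 601, 778 and 1364 CPM. Lgals3 was at 1201 and 1235 CPM below a sum of 5 in the pool labelled wild-type and at 1012 and 1308 CPM in the pool labelled Saa3-/-, and stood at 4021 and 7994 CPM in the highest step. That step held 7 cells in the pool labelled wild-type and 25 in the pool labelled Saa3-/-.

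Other genes were lower at high sums or had no order along the same steps. Ccr2 was at 448 and 454 CPM in the 2 lowest steps of the pool labelled wild-type and at 110 and 97.3 CPM in the 2 highest, and in the pool labelled Saa3-/- these values were 481 and 611 against 156 and 108 CPM. Adgre1, the gene of the macrophage antigen F4/80, was at 858 CPM in the lowest step and 259 CPM in the highest in the pool labelled wild-type. In the pool labelled Saa3-/- it had no such order, at 405, 585, 596, 971, 330 and 199 CPM. H2-Ab1, an MHC class II gene, went from 12497 to 2497 CPM in the pool labelled wild-type and from 6555 through 11220 to 3886 CPM in the pool labelled Saa3-/-. Lpl was highest in different steps, at 1400 CPM between 20 and 50 in the pool labelled wild-type and at 3512 CPM at 50 or more in the pool labelled Saa3-/-, where the step from 20 to 50 stood at 408 CPM.

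**Figure D4:**
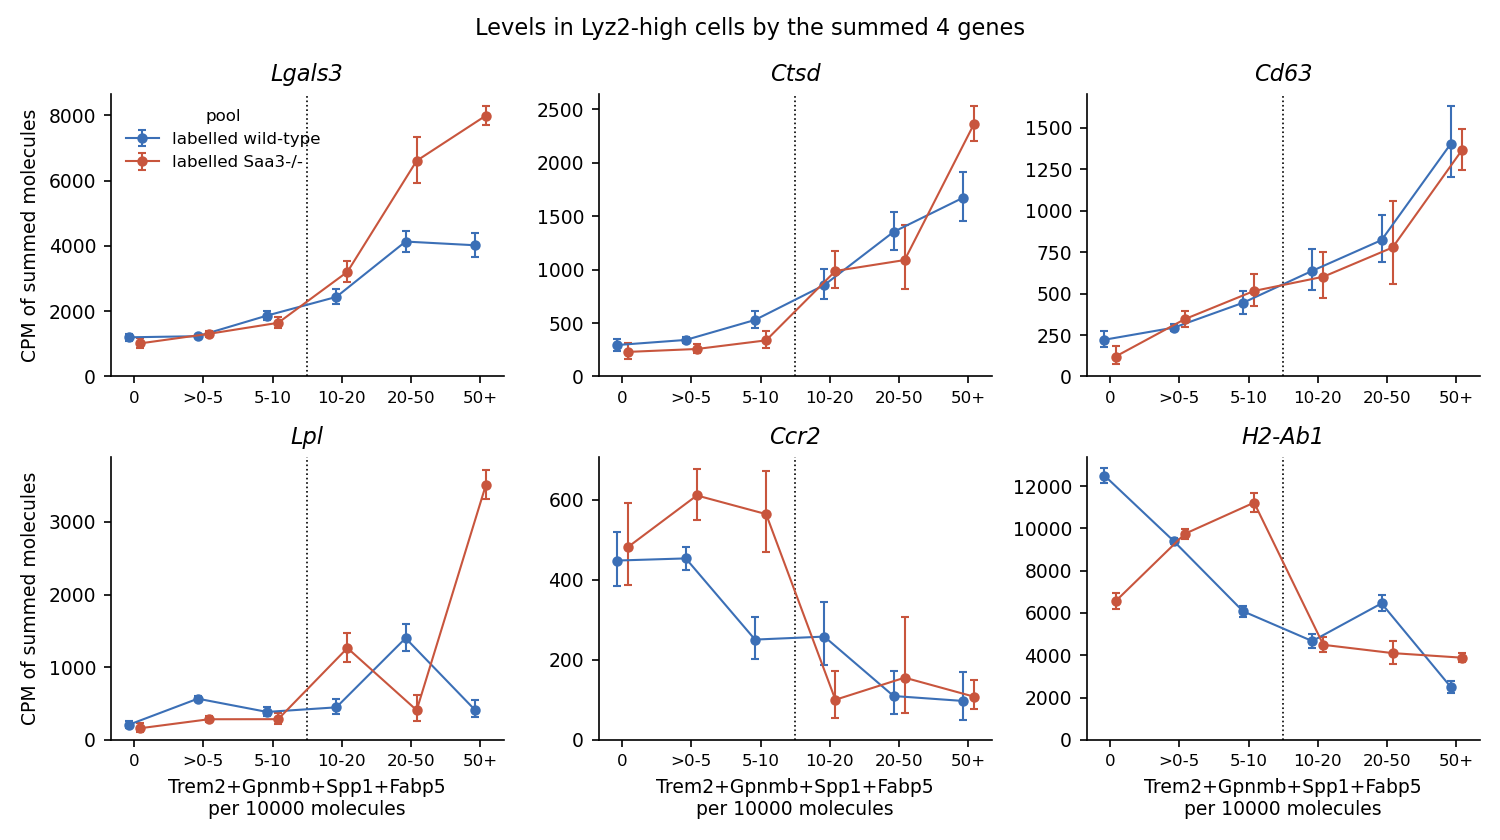
CPM of summed molecules (vertical axes, from 0) for 6 genes outside the rule in Lyz2-high cells grouped by the summed level of Trem2, Gpnmb, Spp1 and Fabp5 (horizontal axes), by pool, with 95% Poisson intervals and the limit of the rule as a dotted line. Lgals3, Ctsd and Cd63 are higher in the upper steps, Ccr2 is lower in the upper steps than at sums below 5, and Lpl is highest in a different step of each pool.

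Within the lipid-laden cells, those high in C1q were set against those low in C1q, 31 against 7 cells and 40 against 7. By the same call, 84 genes were higher (3.29% of 2552) and 58 lower (2.27%), on few C1q-low cells. Beside the C1q genes that made the split, Cd163 gave 67 and 51 molecules in C1q-high lipid-laden cells and 0 in the C1q-low ones, at least 2.98-fold and 2.89-fold higher against a floor of 3 molecules. Rnf150 and Lima1 were also absent from the C1q-low cells, at 38 and 38 and at 36 and 31 molecules in the C1q-high ones. Their bounds against the same floor were weaker than those of Cd163. Rnf150 was at least 1.69-fold higher in the pool labelled wild-type and 2.15-fold in the pool labelled Saa3-/-. For Lima1 the bound lay below 2-fold in both pools. Genes higher in the C1q-low cells were Bhlhe40, a transcription repressor, at 644 against 159 CPM (log2 ratio -2.02) and 723 against 210 CPM (-1.79), Plaur, the urokinase receptor (-1.79 and -1.42), Clec4d, a C-type lectin (-1.65 and -1.37), Gda, guanine deaminase (-1.44 and -2.23), Map4k4 (-1.76 and -1.61) and Ist1 (-1.29 and -1.28).

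The lipid-laden genes did not follow this split. The partner list had medians of -0.01 and 0.24 with 1 of 27 genes higher, and the lysosome list had 1 higher and 1 lower of 31. Resident genes did follow it, with 8 of 14 higher and medians of 2.72 and 1.49. Glycolysis genes were at -0.83 and -0.79, with 1 of 12 called lower.

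Between the pools, within lipid-laden cells, 58 genes were higher in the pool labelled Saa3-/- (1.67% of 3473 genes with at least 50 molecules) and 111 lower (3.2%), where the limit was again a log2 size of 1. With median-of-ratios scaling the counts were 79 and 89. In the other Lyz2-high cells the shares were 1.37% and 1.89% of 7883 genes. With 1 pool per genotype these ratios have no replicate, and cells, animals and genotype cannot be told apart. Of the rule's own genes, Gpnmb and Fabp5 had log2 ratios of 1.28 and 1.40, and Trem2 and Spp1 of 0.33 and 0.27.

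The higher genes included lipid and lysosome genes. Lpl was at 777 CPM in the lipid-laden cells labelled wild-type and at 2650 CPM in those labelled Saa3-/-, a log2 ratio of 1.77, whereas in the other Lyz2-high cells it was lower in the pool labelled Saa3-/-, at -0.92. With cells thinned to 2000 molecules the Lpl ratio was 0.99. Ctsk was at 28.1 and 147 CPM (2.34; other cells -0.24), Fabp4 at 14 and 79 molecules (2.27; other cells 1.08) and Atp6v0d2 at 93.1 and 313 CPM (1.74; other cells -0.37). St6galnac4, a sialyltransferase, gave 1.78 and Lyst, a regulator of lysosome size, 1.66, and Fam198b was at 23.8 and 74.5 CPM, a ratio that was 0.77 with a limit of 5 on the 4 genes. Retnla, a secreted marker of alternative activation, gave 2.23, but 1 cell held 86.4% of its molecules in the pool labelled Saa3-/-, and with the limit on the 4 genes at 5 the ratio was 0.44.

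By list, 5 of 29 partner genes were higher in the pool labelled Saa3-/- and none lower, with a median of 0.60 and 27 above 0, beside a median of 0.02 over all genes. The 5 were Ctsl, Fabp4, Lpl, Mmp12 and Atp6v0d2. The lysosome list had 3 of 33 higher and a median of 0.35, the osteoclast list 3 of 9 and 0.55 (-0.50 over the 4 genes left without cells with markers of another lineage), and the uptake, storage and efflux list 2 of 19 and 0.43. The lists share members, so their counts are not separate results. Atp6v0d2 is in the partner, lysosome and osteoclast lists, and Mmp12 in the partner and osteoclast lists. Ctsk is in the lysosome and osteoclast lists, and Fabp4 in the partner and uptake lists. In the other Lyz2-high cells the partner list stood at -0.09 and the lysosome list at -0.03. The 2 cell groups come from the same pools, and the difference between them was not tested. The cells labelled Saa3-/- also had the larger share at 50 or more per 10000 of the 4 genes, 53.2% against 18.4%, and the part of this in the partner ratios was not tested.

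Single cells set the largest ratios in the other direction. Ibsp, Chad and Col2a1, genes of bone and cartilage matrix, and Sparc, a collagen-binding matrix protein, had log2 ratios of -6.27, -5.88, -5.08 and -4.11. One cell labelled wild-type held 1240 of 1256 Ibsp molecules, 1091 of 1113 of Chad, 769 of 788 of Col2a1 and 2100 of 2255 of Sparc. This cell had 24012 molecules, entered on 97 molecules of Spp1 and 1 each of Trem2 and Fabp5, and held 92 of Lyz2. Without it the ratios of Ibsp, Chad, Col2a1 and Sparc were -0.09, -0.32, 0.18 and -0.32, and that of Col1a2, a collagen chain, went from -2.54 to 0.37.

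A second cell labelled wild-type carried much of the interferon response, with 86 of 136 Cxcl10 molecules and 46 of 68 of Rsad2 in 26182 molecules in all. Of 12 interferon genes 9 were lower in the pool labelled Saa3-/-, with a median of -1.83, and without this cell the median was -0.66 over the 7 genes still at 50 molecules. Cxcl10, a chemokine for T cells, had a log2 ratio of -3.88 with this cell and -2.53 without it, Isg15, a ubiquitin-like modifier, -2.78 and -1.95, and Slfn8, a schlafen family gene, -2.75 and -2.43. In the other Lyz2-high cells these 3 genes stood at 0.34, 0.05 and 0.11, and the median of 18 interferon genes was 0.00. The same cell held 41 of the 73 molecules of Mki67, a proliferation marker, whose ratio without it was -0.41.

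**Figure D5:**
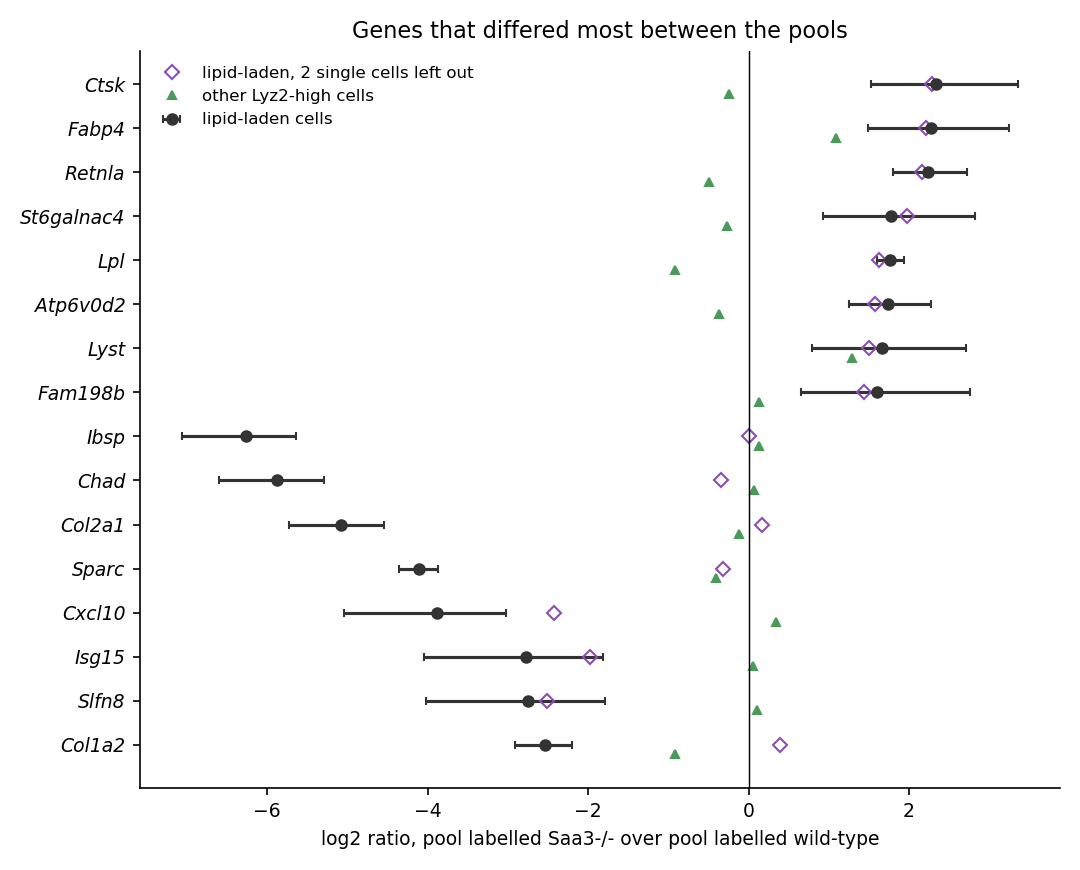
Log2 ratio between the pools, Saa3-/- label over wild-type label, for the 8 highest and 8 lowest genes by the fixed rule. Black points are the lipid-laden cells with 95% counting intervals, open diamonds the same without the 2 single cells described in the text, and triangles the other Lyz2-high cells. The 8 higher genes stay above 1 without these cells, and the matrix genes Ibsp, Chad, Col2a1, Sparc and Col1a2 move to between -0.35 and 0.40. Both cells left out carry the wild-type label, so the diamonds do not show the weight of single cells labelled Saa3-/-, such as that for Retnla.

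Of the other lists, inflammatory genes were lower in 3 of 19 cases in the pool labelled Saa3-/-, with a median of -0.51. Cxcl2, a neutrophil-attracting chemokine, was at 1026 and 386 CPM (log2 ratio -1.41) and Tnf, the cytokine tumour necrosis factor, at 223 and 99.3 CPM (-1.16), while in the other Lyz2-high cells both were higher in that pool, at 0.71 and 0.92. Without the second cell Tnf stood at -0.99. Il1b was at 106 and 91.7 CPM (-0.21). A list of 20 genes of stress during cell dissociation moved alike. Between the pools its median was -0.19 in the lipid-laden cells, with 13 genes below 0 and 7 above. In the other Lyz2-high cells it was 0.37, with 19 above 0 and 1 below. The part of such stress in the inflammatory ratios was not tested. Of 14 resident genes 4 were lower and none higher, Lyve1 most, at 297 and 57.3 CPM (-2.35). It was found in 9 and 8 lipid-laden cells, and 1 cell held 32.8% and 36.7% of its molecules. F13a1, coagulation factor XIII A and Pf4, platelet factor 4, gave -1.08 and -1.04, and Cbr2, a carbonyl reductase, was at 357 and 178 CPM.

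Fibroblast, smooth muscle and plasma cell markers had similar medians in lipid-laden and other Lyz2-high cells. Their summed median per 10000 molecules was 12.2 against 12.9 for fibroblast, 7.37 against 7.28 for smooth muscle and 9.64 against 10.7 for plasma cell genes in the pool labelled wild-type. In the pool labelled Saa3-/- these were 12.4 against 11.3, 6.62 against 7.37 and 10.1 against 10.0. T cell genes were at 3.03 against 2.80 in the pool labelled wild-type and higher in the lipid-laden cells labelled Saa3-/-, at 4.69 against 2.24, and the part of this in the ratios of that pool was not tested. Of 5 T cell genes compared, 1 was called higher in the lipid-laden cells and none lower, with median log2 ratios of -0.51 and 0.25. No marker of the T cell list was at 0, and the lipid-laden cells reached at most 15.3 and 20.2 per 10000 for it. Of the lipid-laden cells, 3 labelled wild-type and none labelled Saa3-/- had 50 or more per 10000 of another lineage. Scrublet marked 1 lipid-laden cell among 13 of 833 cells labelled wild-type, and in the pool labelled Saa3-/- it marked 0.243% of cells, too few for the caller to have worked.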

How the data were processed

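Cells of the aortic arch were measured by BD Rhapsody single-cell RNA sequencing. The authors deposited counts of molecules (unique molecular identifiers) per cell and gene for each genotype's sample tag, made per the file headers with the BD Rhapsody WTA Analysis Pipeline 1.11.1 on GRCm38 with GENCODE M19, intronic reads included. The submitters' processing notes name R 4.3.1 and Seurat 4.3.0 for this sample. The deposited table of tag calls assigned 889 and 854 of 2401 putative cells to the pools; 647 were undetermined and 11 were multiplets, and the pools share 0 cell indices.

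From these counts, cells were chosen as described above and summed per pool and cell group (Python 3.11.15, pandas 2.3.3, scipy 1.17.1), scaled to CPM, and set against each other as log2 ratios after adding 0.5 molecule, with minimums of 30 molecules per pool, or 50 between pools. There is 1 pool per genotype and 1 multiplexed sample, so no test was made. Intervals are 95% exact Poisson or Clopper-Pearson intervals and cover counting error only. The members and gene lists were chosen with earlier results of these data known. The text names, among called genes, the 12 at either end by the smaller of the ratios in the 2 pools with at least 10 cells holding them, the 8 at either end between pools, the 6 and 6 of the C1q split with at least 5 cells, and members of the lists. These rankings left out Lyz2 and the 4 genes of the rule. They also left out symbols of the Gm, Rik and mt- kinds and of immunoglobulin and T cell receptor segments. Doublets were not removed beyond the authors' tag multiplets, and Scrublet (scanpy 1.11.5) was an alternative. Scaling alternatives used edgeR 4.0.16 and DESeq2 1.42.0 factors in R 4.3.3. On simulated counts for the comparison of lipid-laden with other Lyz2-high cells, over 6473 genes, 96% of genes set to a log2 change of 1.5 and 74% of those set to -1.5 were called, and 0.0478% of unaltered genes. These counts were Poisson draws from summed profiles, without variation between cells or a choice of cells by their genes. The shares therefore cover counting error only and give no rate of false calls for the data. Gene positions are from GENCODE M21 on GRCm38 and promoters from RefSeq on GRCm38.p6. Some items of the study are not reported here.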

Additional observations from a re-analysis of the deposited data

Results flagged for a closer look

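Genes of the interferon response stood on opposite sides in the pools. The log2 ratio of lipid-laden over other Lyz2-high cells was 1.72 for Cxcl10 in the pool labelled wild-type and -2.50 in the pool labelled Saa3-/-, a difference of -4.22. Ifit3 gave 2.03 and -1.80 (difference -3.83), Rsad2 1.88 and -1.80 (-3.69), Slfn8 1.22 and -1.64 (-2.86) and Isg15 1.10 and -1.74 (-2.83). Hcst, the signalling adaptor DAP10, gave 1.42 and -1.46 (-2.89). These differences were not tested, since each genotype is 1 pool. One cell labelled wild-type held 63.2% of the Cxcl10 molecules, and without it the ratios in that pool were 0.37 for Cxcl10, 1.01 for Ifit3, 0.36 for Rsad2, 0.89 for Slfn8 and 0.26 for Isg15. Ifit3 shares 51.2% of its 50-base words with Ifit3b.

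The 4 genes also reached the limit of 10 per 10000 in cells outside the rule. Of cells low in Lyz2, 20 of 551 labelled wild-type (3.63%; exact binomial 95% interval 2.23 to 5.55) and 20 of 633 labelled Saa3-/- (3.16%; 1.94 to 4.84) did so. Fibroblast markers reached 20 or more per 10000 in 7 and 11 of these cells.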

How the results depend on the processing

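No paired analysis was possible because each genotype is 1 pool of cells and the result comes from no test. In the order of genes higher and lower in lipid-laden cells, then, between pools, higher and lower with the Saa3-/- label, the counts 82, 126, 58 and 111 became 690, 485, 2836 and 3010 with no minimum of molecules, 27, 33, 8 and 16 with a minimum of 200, 290, 428, 294 and 331 at a log2 limit of 0.58, 31, 33, 10 and 41 at 1.5, 33, 24, 10 and 11 with cells thinned to 2000 molecules, and 38, 74, 34 and 47 without cells with markers of another lineage. That last filter reversed the share difference to -7.62 points, from 25.8% and 18.2%. A minimum of 20 gave 256 and 355 between pools, equal weight per cell 96 higher between pools, and Lyz2 at 60 or more 52 lower between pools. Each pool by itself gave 196 and 294, and 376 and 648; C1q-low cells alone as comparison gave 158 higher. A limit of 5 on the 4 genes gave shares of 24.1% and 40% with 50 higher and 46 lower genes, and a limit of 20 gave 7.80% and 16.8% with 213 lower. Of all kept cells the shares were 4.56% and 5.71%, 1.15 points apart. Saa3 without its highest cell was at 16.5 CPM in the pool labelled wild-type. Alternatives chosen after seeing the data gave 2.48% and 13.2% with 126 higher, 304 lower and 51 lower between pools (limit of 50), 9.57% and 15.8% (rule without Trem2), and 67 lower between pools (without both single cells). Between pools Col1a2 reversed to 0.28 (Lyz2 at 60), 0.46 (no cells at 50 of another lineage), 0.30 (limit of 50), 0.37 (without the matrix cell) and 0.40 (without both cells), and Sparc to 0.25 (no cells with markers of another lineage). The resident_like list was at 2.58 against C1q-low cells. Fewer genes or cells enter the stricter settings; other causes were not tested. Depth limits genes with few molecules, such as Ctsk and Fabp4.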
